A study of Mus musculus with 24 samples.

Results

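The guanylate-binding protein (Gbp) genes of the mouse were followed in 24 ovaries, with Gbp2b as the starting point. The 10 genes were the rows of the deposited count table whose Ensembl identifier GENCODE release M21 pairs with the symbols Gbp2, Gbp2b, Gbp3, Gbp4, Gbp5, Gbp6, Gbp7, Gbp8, Gbp9 and Gbp10, and the whole table had 54532 genes. The family was selected on the measured levels of Gbp2b, which lay near 0 in most ovaries and above 15 CPM in a few. CPM is the count of a gene per 1000000 counts of its library. The levels of Gbp2b are therefore given as a description with no test, and every test concerns its 9 relatives or other genes.

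All mice were described as C57BL/6J females. Natural aging ovaries were collected at 3, 6, 9, 12, 18 and 25 months, and ovaries of mice given ABT263 were collected at 6 and 9 months, with 3 ovaries in each of the 8 groups. ABT263 (navitoclax) inhibits anti-apoptotic BCL-2 family proteins and is used to remove senescent cells. It was given by oral gavage in monthly cycles for 3 months from 3 months of age, so the 9-month ABT263 ovaries were taken after the treatment had ended. The paper also describes a fertility assay in which treated and control mice were housed with males from 6 to 9 months of age. Whether the sequenced 9-month ovaries came from such mice was not given by the labels. The study's methods describe a vehicle control for the drug, and its results name ovaries of mice given vehicle among those sequenced. The labels, however, name the 6- and 9-month ovaries without ABT263 only as natural aging. These served as the controls here, and whether they received vehicle was not given by the labels. Each library was made from the RNA of a whole homogenized ovary. The 3 ovaries of a group came from 3 mice, so p-values measure the spread between mice.

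The libraries held between 16361877 and 21049389 counts. In these libraries 3 counts of a gene correspond to between 0.144 and 0.186 CPM, where CPM was scaled by trimmed-mean factors over all 24 libraries. The labelled tissue was checked with markers of the ovary. Gdf9, a growth factor secreted by oocytes, had 101, 103 and 79 CPM in the 3-month ovaries 1, 2 and 3, and Amh, the anti-Müllerian hormone of granulosa cells, had 381, 275 and 227 CPM. At 25 months Gdf9 had 2.55, 8.97 and 2.34 CPM and Amh 4.98, 9.13 and 1.99 CPM, so both were still counted but were low in the oldest ovaries.

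Guanylate-binding proteins are large GTPases that cells make in response to interferons, above all interferon gamma. They assemble on the vacuoles and membranes of intracellular bacteria and parasites and help to break them open, and they feed bacterial products to caspases that trigger inflammasomes. Interferon gamma acts through its receptor and the Janus kinases and induces IRF1. Promoters of genes that respond hold gamma-activated sites (GAS) or interferon-stimulated response elements (ISRE), and IRF proteins bind the latter. In the mouse the genes form a cluster on chromosome 3 and another on chromosome 5.

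In GRCm38, Gbp2b (ENSMUSG00000040264) lies on the plus strand at chr3:142594847-142619179, directly before Gbp2 at chr3:142620602-142638008. Gbp5, Gbp7 and Gbp3 lie on the same strand before them, with Gbp5 at chr3:142493978-142522344, Gbp7 at chr3:142530342-142550149 and Gbp3 at chr3:142560026-142573209. The other 5 members lie on the minus strand of chromosome 5, where Gbp8 (chr5:105014150-105139540), Gbp9 (chr5:105077630-105139539) and Gbp4 (chr5:105115767-105139586) overlap, and Gbp10 (chr5:105215699-105239533) and Gbp6 (chr5:105270702-105293698) follow.

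Promoters of RefSeq (GRCm38.p6), from 250 bases before to 50 bases after a RefSeq start, were at hand for the 5 members on chromosome 3. Gbp2b, its neighbour Gbp2 and Gbp5 are shown because Gbp2b and its relatives took different courses over the ovaries. The windows of Gbp2b and Gbp2 hold the same ISRE-like letters at different positions, and that of Gbp5 holds GAS-like letters as well. Capitals mark matches to the ISRE-like motif GAAANNGAAA, read on both strands (TTTCNNTTTC on the strand printed), and to the GAS-like motif TTCNNNGAA, which reads the same on both strands. The Gbp2b promoter is chr3:142594597-142594896, that of Gbp2 is chr3:142620413-142620712 and that of Gbp5 is chr3:142496684-142496983, all on the plus strand and printed 5′ to 3′. The RefSeq starts of Gbp2 and Gbp5 lie inside the GENCODE spans given above, so these windows do not end at the start of those spans.
Gbp2b: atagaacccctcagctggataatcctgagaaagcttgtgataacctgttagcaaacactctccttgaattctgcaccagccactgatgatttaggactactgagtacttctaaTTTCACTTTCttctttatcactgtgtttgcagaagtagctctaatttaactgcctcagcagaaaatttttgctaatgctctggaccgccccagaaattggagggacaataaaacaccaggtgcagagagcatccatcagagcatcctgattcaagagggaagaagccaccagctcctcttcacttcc
Gbp2: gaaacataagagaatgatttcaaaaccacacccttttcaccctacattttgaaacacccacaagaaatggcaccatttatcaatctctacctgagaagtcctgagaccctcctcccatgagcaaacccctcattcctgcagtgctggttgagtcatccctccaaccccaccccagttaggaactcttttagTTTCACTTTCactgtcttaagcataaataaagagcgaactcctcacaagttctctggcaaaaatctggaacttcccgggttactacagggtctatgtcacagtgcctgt
Gbp5: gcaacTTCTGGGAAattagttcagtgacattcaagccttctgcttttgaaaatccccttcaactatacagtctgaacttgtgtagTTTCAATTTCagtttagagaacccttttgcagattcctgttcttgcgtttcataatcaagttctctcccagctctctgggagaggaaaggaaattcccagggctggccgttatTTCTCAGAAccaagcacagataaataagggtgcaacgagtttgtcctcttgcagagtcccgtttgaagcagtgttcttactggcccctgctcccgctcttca

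The ISRE-like match began at position -137 from the RefSeq start of Gbp2b, at -59 for Gbp2 and at -165 for Gbp5. Gbp7 had such a match at -53, and the first of 2 Gbp3 promoters had overlapping matches at -45 and -39. The second Gbp3 promoter had no match to either motif. GAS-like matches stood at -245 and -52 in Gbp5 and at -106 and -87 in Gbp7, and none of them overlapped an ISRE-like match. Of the 32851 promoters of the same length in the table, 3.44% held the ISRE-like motif, 8.3% the GAS-like motif and 0.454% both. These matches describe letters in the windows and are not evidence of binding.

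Gbp2b, a member of the family that was first described as mouse Gbp1, was above 15 CPM in 5 ovaries. It was at or below 1.88 CPM in the other 19. The 3-month ovaries had 16.5, 0 and 0.153 CPM. The 9-month ovaries had 0.541, 30.4 and 0 CPM. In each of these groups a single ovary was high and the other two were near 0. In whole-ovary RNA, fewer cells of a type and less RNA per cell cannot be told apart, here and in all results that follow.

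With ABT263 the 6-month ovaries had 0.12, 24.4 and 20.3 CPM of Gbp2b, and the 9-month ovaries had 0.824, 0.789 and 30.4 CPM. At 6 months without the drug Gbp2b was at 0.345, 0.149 and 0.405 CPM. The 12-month ovaries had 0.217, 0.573 and 0.897 CPM, and the 18-month ovaries 0.653, 0.554 and 0.23 CPM. High ovaries therefore occurred in 4 of the 8 groups, at 3 and 9 months and in both ABT263 groups, and were found neither at 6 months without the drug nor from 12 months on.

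The 25-month ovaries had 1.52, 1.88 and 1.17 CPM of Gbp2b, the highest values below the threshold of the choice. The high ovaries had between 340 and 550 counts of the gene, and the others between 0 and 36, with a median of 0.541 CPM. The lowest value above 15 CPM, 16.5 CPM, was 8.77 times the highest value below it. Libraries with high Gbp2b had 20029940 (3 months, ovary 1), 19829519 (9 months, ovary 2), 18600936 and 19279896 (ABT263 at 6 months, ovaries 2 and 3) and 16776567 counts (ABT263 at 9 months, ovary 3), within the range of all libraries. Group means of Gbp2b rest on which ovaries were high: 5.54 ± 9.46 CPM at 3 months, 10.3 ± 17.4 at 9 months, 14.9 ± 13 with ABT263 at 6 months and 10.7 ± 17.1 with ABT263 at 9 months, against 0.299 ± 0.134 at 6 months and 1.52 ± 0.354 at 25 months (SD, n = 3).

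**Figure D1:**
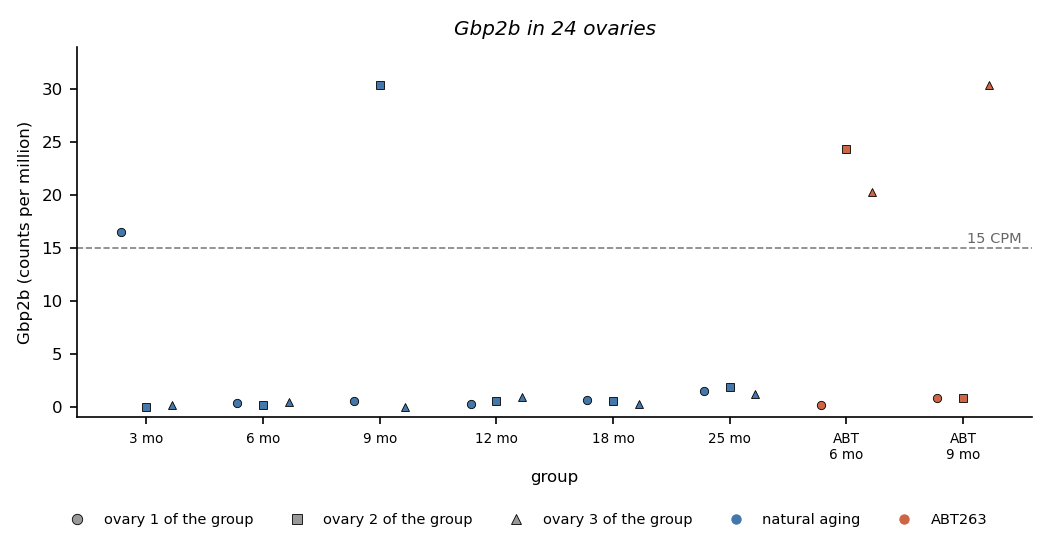
Gbp2b in CPM (y axis) for the 3 ovaries of each of the 8 groups (x axis); each point is 1 ovary, its shape gives the ovary's number in the group, its colour natural aging or ABT263, and the dashed line is 15 CPM. 5 ovaries lie between 16.5 and 30.4 CPM, and 19 lie between 0 and 1.88 CPM.

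Annotated transcripts of Gbp2b share little sequence with other genes. The reads themselves were not examined. Of the 50-base stretches in Gbp2b transcripts, 1.84% also occurred in another gene, all in Gbp2, and of those of Gbp2, 2.03% occurred in Gbp2b. Gbp6 shared 65% of its 50-base stretches with the predicted gene Gm43302 and 45.9% with Gbp10. Gbp10 shared 73.3% with Gbp6 and 72.1% with Gm43302. With any other gene the share was 70.7% for Gbp6 and 84.1% for Gbp10, so their counts are uncertain. The share was 18.1% for Gbp8 and 12.7% for Gbp7, and 8.05% or less for Gbp3, Gbp4, Gbp5 and Gbp9. Exons of Gbp4, Gbp8 and Gbp9 overlap by 60 or 61 bases.

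Per kilobase of exon, Gbp2 was the most abundant member, with a mean level over the 24 ovaries of 32.7 CPM per kb. Gbp3 followed with 11.4, Gbp7 with 6.54 and Gbp9 with 4.81 CPM per kb. Gbp4, Gbp8, Gbp2b, Gbp5 and Gbp6 had mean levels of 2.77, 2.01, 1.96, 1.81 and 1.2 CPM per kb, and Gbp10 one of 0.134 CPM per kb. The order of the lower members differed between ages, as Gbp8 had 0.576 CPM per kb at 3 months, under Gbp5 with 0.695 and Gbp6 with 0.588. The mean of Gbp2b rests on its 5 high ovaries, and at 25 months its 0.539 CPM per kb was the lowest of the 10. All relatives other than Gbp10 were counted in every ovary, with at least 31 counts each, whereas Gbp10 was at 3 counts or fewer in 12 ovaries.

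None of the relatives had the all-or-none pattern. Between its lowest and highest ovary Gbp7 differed 3.97-fold, Gbp3 5.64-fold, Gbp2 6.94-fold and Gbp8 20.3-fold. For all 9 relatives the highest ovary was a 25-month ovary, and for 7 of them the lowest was a 3-month ovary. Genes were also searched for a gap of at least 3 on the log2(CPM + 0.1) scale between ordered ovaries, with 3 or more ovaries on each side. Of 18668 genes with a highest level of at least 1 CPM, 8 had such a gap, Gbp2b among them with a gap of 3.07, and no relative and no gene with the same 5 ovaries on its upper side.

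Whether the relatives followed Gbp2b from ovary to ovary was asked by a slope on the log2 level of Gbp2b in a model with the 8 groups as a factor, over all 24 ovaries and 19512 genes (edgeR quasi-likelihood test with Benjamini-Hochberg adjustment). The group factor leaves only differences within groups, so the 4 groups with a high ovary carry most of the information. None of the 9 relatives passed an adjusted p of 0.05, none had an unadjusted p under 0.05, and DESeq2 called 0 as well, beside 0.0666% of the same genes. Over all genes, 6 passed, or 0.0308%, all with a positive slope, and 790, or 4.05%, had an unadjusted p under 0.05.

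Slopes of the relatives, in log2 units per doubling of Gbp2b, lay between -0.003 and 0.056, with a median of 0.030. They were above 0 for 8 of 9 relatives, where 51.3% of all genes were above 0 with a median of 0.001. Without the group factor, Spearman's rho with Gbp2b over the 24 ovaries was between 0.14 (Gbp10) and 0.49 (Gbp7). Pearson's r was between -0.03 (Gbp10) and 0.19 (Gbp7), and neither measure was tested. For Gbp2, which lies next to Gbp2b and binds the vacuole of Toxoplasma, the slope was 0.039 ± 0.040 (SE), with an interval of 2 SE from -0.042 to 0.119. Gbp3, a chromosome 3 member, had 0.039 ± 0.035, and Gbp7, whose protein helps to assemble oxidative and autophagic defences, 0.025 ± 0.033. Gbp5, known for its part in NLRP3 inflammasome assembly, had 0.001 ± 0.041.

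On chromosome 5 the slopes were 0.008 ± 0.044 for Gbp4, 0.056 ± 0.049 for Gbp6, 0.035 ± 0.043 for Gbp8 and 0.030 ± 0.041 for Gbp9. Gbp10, with few counts, had -0.003 ± 0.162. The adjusted p was 0.9999 for each of the 9 relatives. For the 8 relatives other than Gbp10, the upper end of the 2 SE interval was at most 0.155, the value for Gbp6. A slope that misses the threshold does not show that a gene is independent of Gbp2b.

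**Figure D2:**
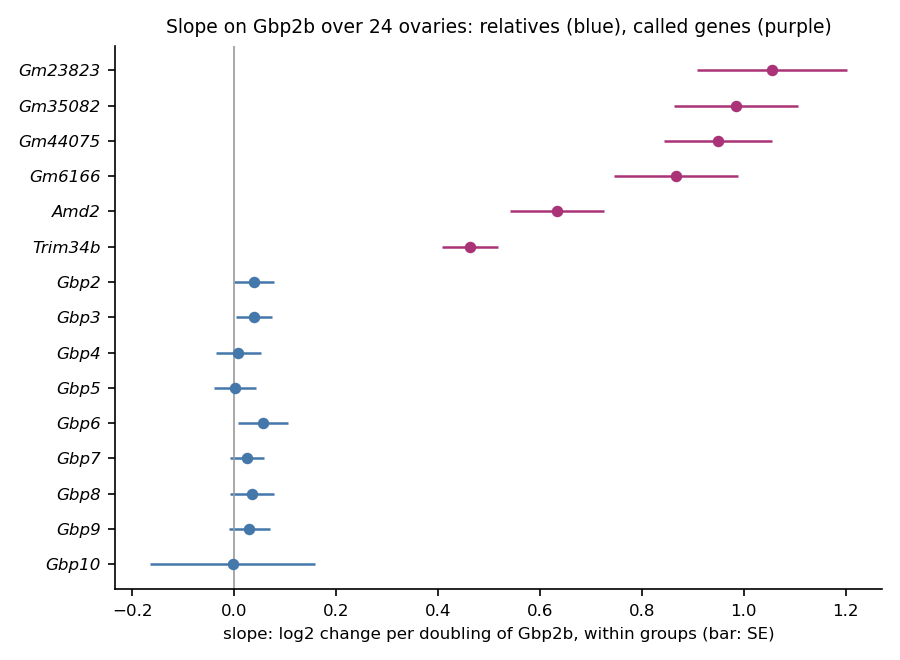
Slope on Gbp2b (x axis, log2 change per doubling of Gbp2b within groups) for 9 relatives (blue) and the 6 genes with an adjusted p under 0.05 (purple); points are estimates over 24 ovaries and bars are SE. The relatives lie between -0.003 and 0.056, and the 6 genes between 0.462 and 1.056.

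Within single groups the order of the relatives went both ways. The share of all genes that were highest or lowest in the same ovary was not worked out. The counts here and in the next paragraph are therefore a description only. In the 3-month group 8 of 9 relatives were highest in ovary 1, which had the high Gbp2b, and Gbp5 was the exception. Gbp2 had 42.6, 34.4 and 31.8 CPM in the 3-month ovaries 1, 2 and 3, and Gbp7 had 30.1, 21 and 22 CPM. At 9 months 3 relatives, Gbp2, Gbp4 and Gbp8, were highest in the Gbp2b-high ovary and 2, Gbp9 and Gbp10, were lowest there.

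With ABT263 at 9 months all 9 relatives were lowest in ovary 3, the Gbp2b-high ovary. There Gbp2 had 119, 66.2 and 57 CPM in ovaries 1, 2 and 3, and Gbp7 had 44.9, 40.2 and 28.6 CPM. With ABT263 at 6 months, where ovaries 2 and 3 were high in Gbp2b, Gbp2 had 43.5, 52.2 and 53.2 CPM. Of the 9 relatives, 6 were lowest in ovary 1, the ovary with low Gbp2b, and 8 were highest in ovary 3. In ovary 2, which had the most Gbp2b, 1 was highest (Gbp10) and 2 were lowest (Gbp4 and Gbp8).

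Among themselves the relatives moved together. Over the 28 pairs of the 8 relatives other than Gbp10, Pearson's r of log2 CPM over 24 ovaries was between 0.77 and 0.95, with a median of 0.89. After subtraction of the group means r was between 0.30 and 0.85, with a median of 0.67. These values describe genes measured in the same libraries and were not tested.

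Regulators and targets of the interferon pathway were also set against Gbp2b. None of the 125 tested genes of the lists used here (interferon receptors, signal transducers, inhibitors, other interferon targets and cell type markers) passed for the slope by edgeR or DESeq2, with slopes from -0.097 to 0.290, and 11 of 78 pathway genes and 1 of 47 marker genes (Nnt among the latter) had an unadjusted p under 0.05, beside the 4.05% of all genes. Estimates were above 0 for 16 of 17 genes of antigen processing and presentation, with a median of 0.05 and 5 at an unadjusted p under 0.05, for 19 of 21 type I interferon-stimulated genes (median 0.06) and for 8 of 9 immunity-related GTPases (median 0.03), where 51.3% of all genes were above 0 with a median of 0.001. The other pathway lists had 5 of 6 inhibitors above 0 (median 0.02), 7 of 11 signal and transcription factors (0.01), 4 of 8 inflammasome partners (0.00), 2 of 4 ligands and receptors (-0.00) and 1 of 2 chemokines (0.02). Irf1, the transcription factor induced by interferon gamma, had -0.002 ± 0.022. Igtp (Irgm3), an immunity-related GTPase that works with the Gbp proteins on vacuoles, had 0.009 ± 0.042. The adjusted p was 0.9999 for both genes.

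Interferon gamma itself, the product of Ifng, was counted at or near 0 throughout. All 5 ovaries with high Gbp2b had 0 CPM of Ifng, where 3 counts would have been between 0.145 and 0.186 CPM. Its highest values were 0.939 CPM in 25-month ovary 2 and 0.416 CPM in 18-month ovary 1.

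The genes that did follow Gbp2b lay elsewhere in the genome. By a rule that took the 10 smallest p-values for the slope among genes with a mean of at least 1 CPM, the first was Trim34b (chr7:104329471-104336909, plus strand), a TRIM family gene, with a slope of 0.462 ± 0.055 and an adjusted p of 0.00172 by edgeR. Gm6166, a processed pseudogene at chr9:57483963-57484371 on the plus strand, had 0.867 ± 0.121 (adjusted p = 0.0062 by edgeR). Amd2, an S-adenosylmethionine decarboxylase gene of polyamine synthesis at chr10:35708675-35711892 on the minus strand, had 0.633 ± 0.092 (adjusted p = 0.00643 by edgeR). Pearson's r with Gbp2b over the 24 ovaries, given as a measure of likeness and not used to choose the genes, was 0.74, 0.78 and 0.84 for these 3 genes and is set by the few high ovaries.

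Trim34b had 4.84, 0.479 and 0.511 CPM in the 3-month ovaries and 0.649, 4.75 and 0.336 CPM in the 9-month ovaries. With ABT263 it had 0.18, 4.48 and 4.61 CPM at 6 months and 0.412, 0.394 and 0.496 CPM at 9 months. Trim34b was thus high in 4 of the 5 ovaries with high Gbp2b and low in ABT263 at 9 months ovary 3, which had 30.4 CPM of Gbp2b.

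Gm6166 was high in another 4 of the 5. It had 0.0484, 0 and 0.0511 CPM at 3 months, 0.216, 12.9 and 0.288 CPM at 9 months, 0.12, 10.6 and 9.02 CPM with ABT263 at 6 months and 0, 0.169 and 10.5 CPM with ABT263 at 9 months. Here 3-month ovary 1 was the one that was low. In every other group Gm6166 was at or below 0.921 CPM.

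Amd2 was high in all 5 and in a sixth ovary. It had 6.78, 0.319 and 0.459 CPM at 3 months, 0.378, 5.85 and 0.336 CPM at 9 months, 0.539, 9.48 and 8.66 CPM with ABT263 at 6 months and 0.294, 0.732 and 6.01 CPM with ABT263 at 9 months. At 12 months it had 0.0542, 0.416 and 7.33 CPM. The sixth ovary, 12-month ovary 3, had 0.897 CPM of Gbp2b and 0.449 CPM of Trim34b.

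The other 7 genes of that rule had adjusted p-values between 0.108 and 0.453. Elovl7, a fatty acid elongase gene, had a slope of 0.200 ± 0.038, Map2, a microtubule-associated protein gene, 0.179 ± 0.040 and 9930012K11Rik 0.151 ± 0.034. Slopes were negative for the noncoding transcript AI506816 (-0.206 ± 0.039), the chemokine gene Ccl27a (-0.108 ± 0.021), 4833420G17Rik (-0.080 ± 0.018) and the mitochondrial iron importer gene Slc25a37 (-0.069 ± 0.014). Slc25a37 (chr14:69241848-69285112) and 9930012K11Rik (chr14:70154405-70159502) lie on the same chromosome. So do Elovl7 (chr13:108214404-108285683) and 4833420G17Rik (chr13:119462768-119486120). AI506816 had 51.6, 149 and 139 CPM at 3 months and 147, 45.2 and 88.7 CPM at 9 months, lowest in the Gbp2b-high ovary of each group.

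The remaining 3 genes past the threshold had means under 1 CPM. The first was the lincRNA Gm35082 (slope 0.985 ± 0.122) at chr7:100675088-100677760, on the same chromosome as Trim34b. The others were the snoRNA Gm23823 on chromosome 14 (1.056 ± 0.147) and the processed pseudogene Gm44075 on chromosome 6 (0.950 ± 0.106). Gm35082 had 1.55 CPM in 3-month ovary 1, 2.04 CPM in 9-month ovary 2 and 2.95 and 3.04 CPM in ABT263 at 6 months ovaries 2 and 3, and 0 CPM in ABT263 at 9 months ovary 3. Like Trim34b, it separated that ovary from the other four with high Gbp2b.

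These calls rested on few libraries. The count of 6 genes fell to 0 without 9-month ovary 2, to 1 without 3-month ovary 1, to 1 without ABT263 at 6 months ovary 1 and to 2 without ABT263 at 9 months ovary 3, and was 5 to 7 without any other single library. Amd2 and Trim34b have close copies in the genome and the pseudogenes have parent genes, so counts of these 4 genes could be split between copies, and how shared reads were counted was not given in the sources used here.

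**Figure D3:**
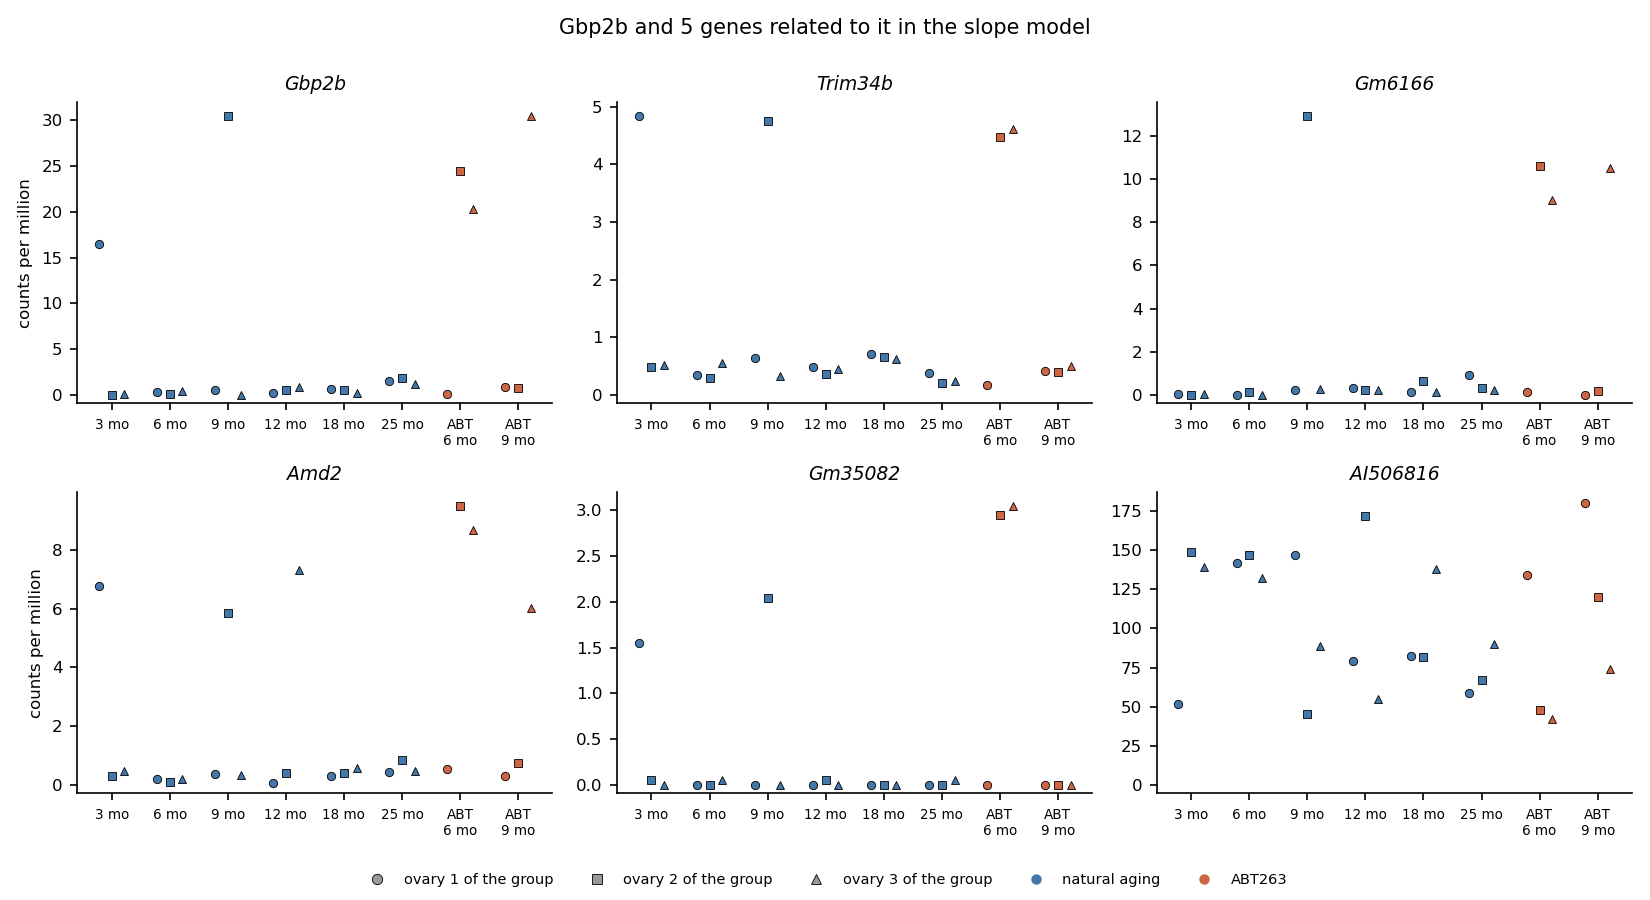
Levels in CPM (y axes, each with its own linear scale from 0) of Gbp2b, 4 genes with a positive slope on it that passed (Trim34b, Gm6166, Amd2 and Gm35082) and AI506816, which had a negative slope and did not pass, in the 3 ovaries of each group (x axis; ABT is ABT263). Each point is 1 ovary; the high ovaries of the 4 genes overlap with those of Gbp2b but are not the same 5.

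Genes next to Gbp2b were also set against it. Within 500 kb of its start lay the starts of 22 genes, of which 11 could be tested. None passed for the slope, beside 0.0308% of all genes, so this count does not set the neighbours apart. The slopes of these neighbours, Gbp2, Gbp3, Gbp5 and Gbp7 among them, lay between -0.029 and 0.084. Pdlim5, a cytoskeletal adaptor gene named after its value was seen, was the 1 neighbour with an unadjusted p under 0.05 (0.073 ± 0.033, adjusted p = 0.9999 by edgeR), beside 4.05% of all genes.

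Markers of cell types were summed in the ovaries with high Gbp2b, which are given in the order 3-month ovary 1, 9-month ovary 2, ABT263 at 6 months ovaries 2 and 3 and ABT263 at 9 months ovary 3. The 6 natural killer cell markers together had 3.87, 5.8, 2.69, 4 and 4.77 CPM, within 2.57 to 49.9 CPM over all 24 ovaries. In all 4 groups with a high ovary this sum was higher in the high ovaries than in the low ones. The smallest gap was in ABT263 at 6 months, where the low ovary had 2.57 CPM. The share of all genes that separate in this way was not worked out, and 8 marker lists were compared. Such counts of groups, here and below, are therefore a description only. Of these markers Prf1 (perforin) had the highest slope, 0.290 ± 0.097 (adjusted p = 0.9999 by edgeR).

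The 3 theca markers together had 2163, 3910, 2074, 3000 and 2118 CPM in the same 5 ovaries, within 289 to 7322 CPM. Most of each sum was Star, with 1422, 2785, 1639, 2486 and 1469 CPM. The theca sums were higher in the high than in the low ovaries in 3 of the 4 groups, as were the macrophage and endothelial sums. The exception was 3 months, where the theca sum of ovary 3 was 2230 CPM. The slopes of the theca genes were 0.121 ± 0.096 for Lhcgr, the luteinizing hormone receptor, 0.107 ± 0.10 for Star, which brings cholesterol into mitochondria, and 0.008 ± 0.181 for Cyp17a1, an enzyme of androgen synthesis, and none passed.

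The 7 macrophage markers had 247, 304, 282, 266 and 427 CPM, within 245 to 1589 CPM, and the 5 endothelial markers 367, 556, 379, 375 and 409 CPM, within 299 to 616 CPM. The 8 T cell markers had 15.2, 17.6, 14.7, 15 and 12.7 CPM, within 8.04 to 310 CPM, and were higher in the high ovary in 1 of the 4 groups. This was so in 2 groups for the B and plasma cell sum, in 1 for the granulosa sum and in 0 for the oocyte sum. The part of these cell types in the level of Gbp2b was not tested.

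Nnt, a mitochondrial transhydrogenase gene that carries a deletion in C57BL/6J, was between 0.106 and 1.43 CPM in all 24 ovaries, those with high Gbp2b included. The strain is as described in the sources. Gbp2b, Trim34b, Amd2, Gm6166 and Gm35082 were high in overlapping but different sets of ovaries. Whether single mice differed in origin or substrain was not tested, and Nnt is a single gene.

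The 8 relatives of Gbp2b that could be tested rose between 3 and 25 months. In the 25-month ovaries Gbp8 was 12.3-fold, Gbp5 7.94-fold, Gbp6 5.65-fold, Gbp4 5.45-fold and Gbp2 5.08-fold higher than at 3 months, and Gbp9, Gbp3 and Gbp7 were 3.86-, 3.36- and 2.64-fold higher. All 8 relatives that could be tested passed an adjusted p of 0.05 by edgeR, where 26.7% of the 17683 genes tested passed in either direction and 15.2% with a rise. Their median log2 change was 2.39, beside 0.006 over all genes tested. For all 8 the ranges of the 3-month and 25-month ovaries did not overlap, as was so, with the older ovaries higher, for 23.6% of genes.

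Gbp2 had 42.6, 34.4 and 31.8 CPM in the 3-month ovaries and 219, 220 and 116 CPM in the 25-month ovaries, a log2 change of 2.34 ± 0.27 (SE, adjusted p = 0.00171 by edgeR). Gbp8 had 2.62, 1.76 and 1.58 CPM against 31.1, 32.1 and 10.4 CPM, a change of 3.61 ± 0.48 (adjusted p = 0.00262 by edgeR). Gbp5 had 4.21, 5.64 and 3.98 CPM against 49.9, 42.6 and 17.8 CPM, a change of 2.99 ± 0.39 (adjusted p = 0.00256 by edgeR). In each of these genes 25-month ovaries 1 and 2 were high and ovary 3 was lower, though above all 3-month ovaries.

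Gbp3 rose from 27.8, 17.6 and 21.5 CPM to 99, 76.2 and 50.9 CPM (log2 change 1.75 ± 0.27), and Gbp7 from 30.1, 21 and 22 CPM to 83.2, 69 and 41.8 CPM (1.40 ± 0.27). Gbp4 rose by a log2 of 2.45 ± 0.40, Gbp6 by 2.50 ± 0.36 and Gbp9 by 1.95 ± 0.39. For these 5 relatives the adjusted p was between 0.0034 and 0.00992. Gbp10 did not pass the filter on low counts in this fit, with 0.0969, 0.0532 and 0.0511 CPM against 3.57, 3.34 and 0.468 CPM, and its reads are shared with Gbp6.

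The mean levels were higher at successive ages, and edgeR made calls against 3 months at 18 and 25 months. Gbp2 had means of 36.3 ± 5.66 CPM at 3 months, 44.1 ± 6.26 at 6, 62.8 ± 11.7 at 9, 90.7 ± 38.6 at 12, 109 ± 41.5 at 18 and 185 ± 60.1 CPM at 25 months (SD, n = 3). The mean of each older age was above that of the age before it for all 9 relatives from 3 to 6, from 6 to 9 and from 18 to 25 months, and for 8 of 9 in the other steps. Neighbouring ages mostly overlapped. The older ovaries lay wholly above the younger for 2 relatives from 3 to 6 months (Gbp8 and Gbp10), beside 6.87% of 19201 genes, for 1 from 6 to 9 (Gbp5), beside 7.6%, and for 1 from 9 to 12 (Gbp8), beside 4.15%. This held for none from 12 to 18 months, beside 6.34%, and for 4 from 18 to 25 months (Gbp4, Gbp5, Gbp8 and Gbp9), beside 9.96%.

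At 18 months 3 of 8 relatives passed against 3 months by edgeR, Gbp2 (1.57 ± 0.29, adjusted p = 0.019), Gbp5 (1.48 ± 0.29, adjusted p = 0.0238) and Gbp8 (2.04 ± 0.34, adjusted p = 0.0144), beside 8.18% of 17403 genes in either direction and 4.7% with a rise. With the replicate number as a block 5 relatives passed by edgeR, beside 11.4% of all genes (1992) in that fit. The 2 added were Gbp4 (adjusted p = 0.0138 by edgeR) and Gbp9 (adjusted p = 0.0478 by edgeR). The labels do not pair these ovaries, which share only a number. Gbp2 had 117, 145 and 63.6 CPM in the 18-month ovaries and Gbp8 10.1, 9.27 and 5.34 CPM, with ovary 3 the lowest in both. The count of 3 was 8 without that ovary, 1 without 3-month ovary 1, 2 without 18-month ovary 2, and 0 without 18-month ovary 1 or 3-month ovary 2 or 3.

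At the earlier ages edgeR called no relative, whereas DESeq2 called some at 9 and 12 months. At 6 months 0 of 8 passed by edgeR, beside 0% of 17313 genes, with log2 changes from 0.15 to 0.80. Of the 8, 1 had an unadjusted p under 0.05 (Gbp8), beside 9.1% of genes, and DESeq2 called 0, beside 0.687%. At 9 months 0 of 8 passed, beside 0% of 17329 genes, with changes from 0.38 to 1.00, and 4 had an unadjusted p under 0.05 (Gbp2, Gbp5, Gbp8 and Gbp9), beside 13.6% of genes. DESeq2 called 2 there, beside 3.1% of genes.

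At 12 months 0 of 8 passed by edgeR, beside 0.0289% of 17315 genes, with changes from 0.53 to 1.51, and 7 had an unadjusted p under 0.05, beside 14% of genes. DESeq2 called 3, beside 4.73%. The 12-month ovaries were spread, with Gbp2 at 46.4, 118 and 108 CPM and Gbp3 at 30.6, 32.2 and 65.7 CPM. The 8 estimates at 6, 9 and 12 months were all above 0, and all 5 age comparisons share the same 3-month ovaries. A single test for any difference over the 6 ages called 9 of 9 relatives by edgeR, beside 22% of 19201 genes, and 3 without the 25-month ovaries, beside 5.22% of 18738 genes.

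**Figure D4:**
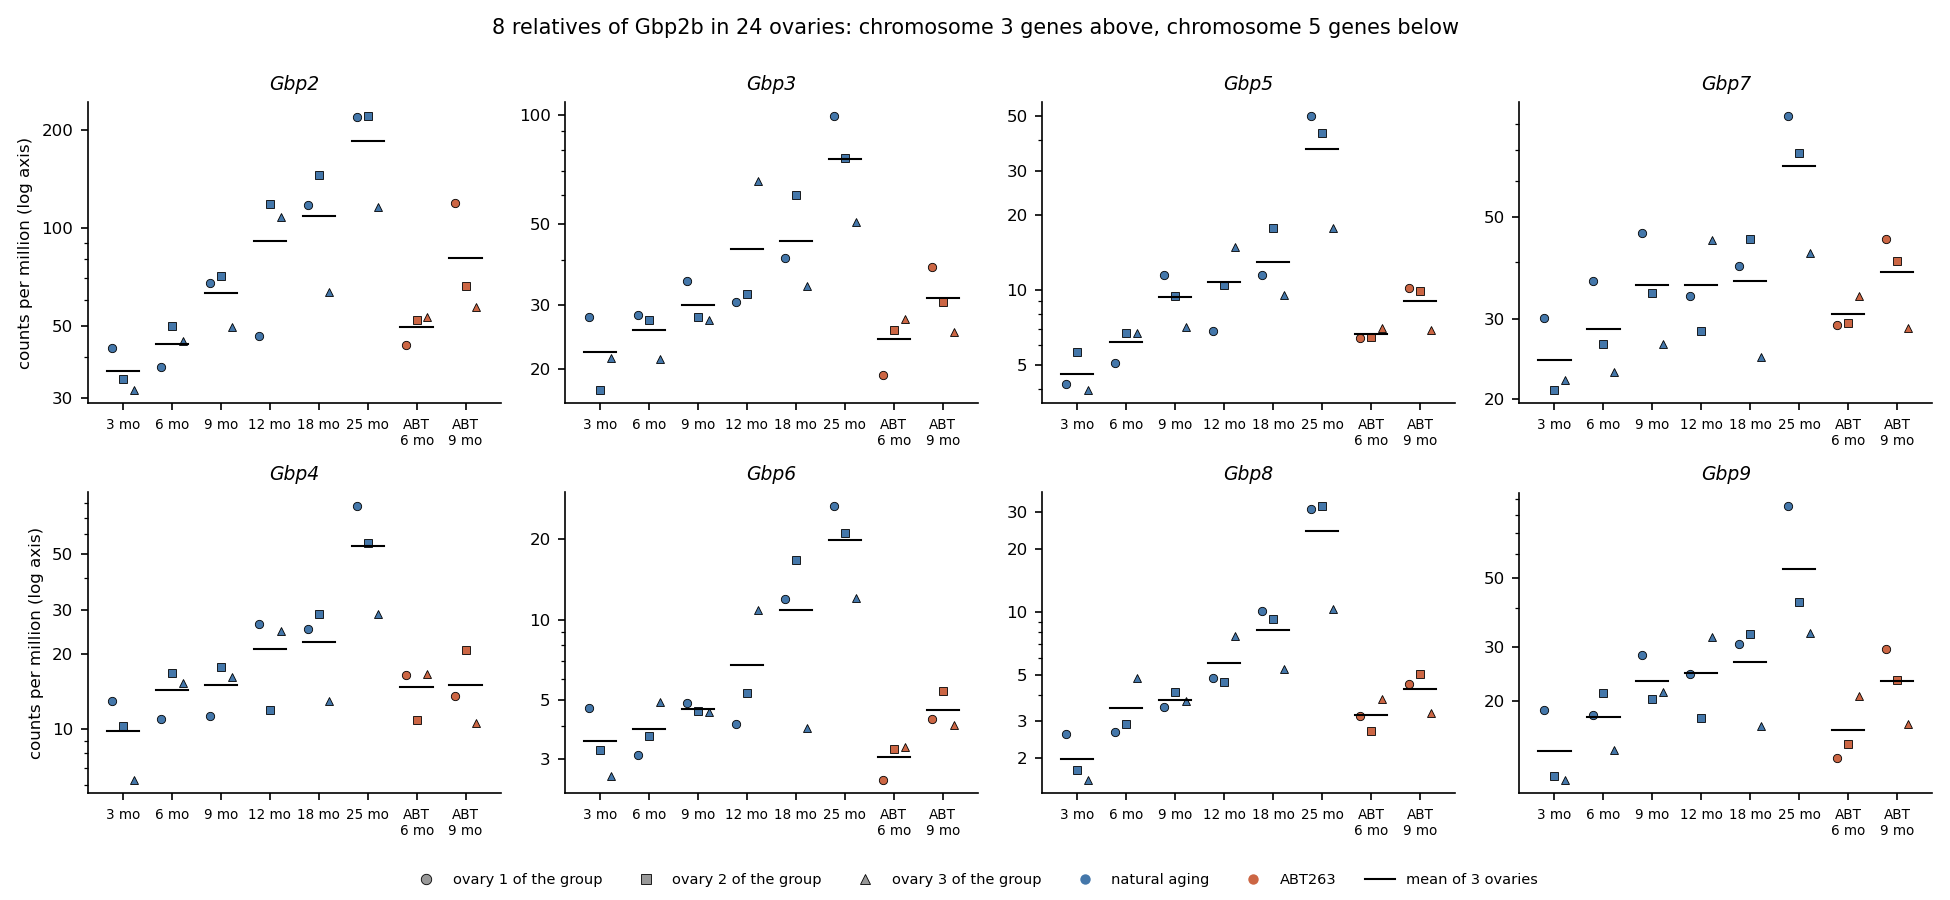
CPM (y axes, log scale, each with its own range) of 8 relatives of Gbp2b in the 3 ovaries of each group (x axis; ABT is ABT263). Points are ovaries, shapes give the ovary's number in its group and lines the mean of 3; in each panel the highest ovary is a 25-month ovary, Gbp2 for example reaching 220 CPM.

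With ABT263 the ranges of the 8 tested relatives overlapped those of the controls. At 6 months 0 of 8 relatives passed by edgeR, beside 0% of 17277 genes, none had an unadjusted p under 0.05, beside 11% of genes, and DESeq2 called 0, beside 2.13%. Gbp2 had 43.5, 52.2 and 53.2 CPM with ABT263 and 37.4, 49.8 and 45 CPM without it, a log2 change of 0.17 ± 0.14. The changes of the 8 relatives lay between -0.36 and 0.17, with SE from 0.14 to 0.30, and the ranges of the groups overlapped for each, where 7.47% of genes were wholly higher and 7.95% wholly lower with the drug.

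At 9 months 0 of 8 passed by edgeR, beside 0% of 17065 genes, none had an unadjusted p under 0.05, beside 5.73% of genes, and DESeq2 called 0, beside 0.176%. Gbp2 had 119, 66.2 and 57 CPM with ABT263 and 67.8, 71.2 and 49.5 CPM without it, a log2 change of 0.37 ± 0.29 that rested on ovary 1 and was -0.03 without it. The changes of the 8 relatives lay between -0.06 and 0.37, with SE from 0.19 to 0.29, and the groups again overlapped for each, where 5.9% of genes were wholly higher and 4.86% wholly lower. The difference between the drug effects at 9 and 6 months was tested as an interaction and passed for 0 of 8 relatives by edgeR, beside 0% of 18202 genes, with none at an unadjusted p under 0.05, beside 7.33% of genes, and none called by DESeq2, beside 0.522%. A p that misses the threshold does not show that the drug had no effect on these genes.

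**Figure D5:**
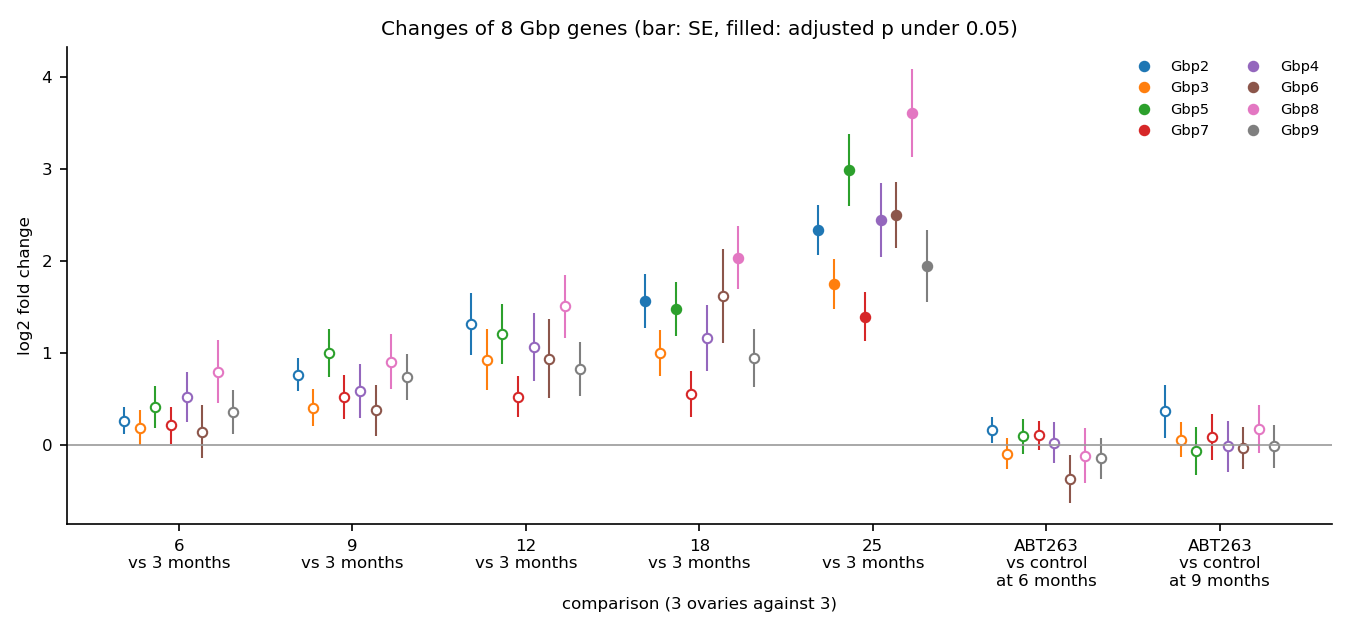
Log2 fold change (y axis) of 8 relatives of Gbp2b in 7 comparisons of 3 ovaries against 3 (x axis). Points are edgeR estimates, bars are SE, and filled points passed an adjusted p of 0.05; the points rise from 0.15 to 0.80 at 6 months to 1.40 to 3.61 at 25 months, and those for ABT263 lie between -0.36 and 0.37.

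Other genes of the interferon gamma pathway were higher in the same 25-month ovaries. The counts of these lists at 25 months are to be read beside the 15.2% of all genes tested that passed with a rise and the 11.4% that passed with a fall. Among receptors, Ifngr1, the ligand-binding chain of the interferon gamma receptor, rose 2.68-fold and Ifnar2, a chain of the type I receptor, 1.8-fold, and these were 2 of 4 tested genes in the list of ligands and receptors. Among signal transducers and transcription factors 7 of 11 rose and none fell. Irf8, a factor of myeloid cells, rose 4.57-fold, Irf1 3.02-fold and Stat2 1.79-fold.

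Of 6 inhibitors of interferon signalling, Ptpn6, a phosphatase of blood cells, rose 6.77-fold and Socs3, a cytokine-induced suppressor, 3.42-fold, and the other four did not pass, a count of 2 of 6 beside 15.2% of all genes. All 9 tested immunity-related GTPases rose, among them Tgtp1 (4.85-fold), Igtp (4.85-fold) and Ifi47 (5.72-fold). Igtp had 15.9, 13.8 and 11.5 CPM in the 3-month ovaries and 81.1, 83.4 and 36.1 CPM in the 25-month ovaries, with ovary 3 lowest as for the Gbp genes.

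All 17 genes of antigen processing and presentation rose, with Psmb8 and Psmb9, subunits of the immunoproteasome, 6.07- and 5.87-fold and H2-K1, a class I heavy chain, 4.49-fold higher. Of 21 type I interferon-stimulated genes 15 rose and 1 fell. Zbp1, a sensor of left-handed nucleic acid, rose 10.3-fold, Rsad2 (viperin) 5.02-fold and Oasl2 2.41-fold. The 1 that fell was Bst2 (tetherin), with a log2 change of -1.11 ± 0.17 (adjusted p = 0.00396 by edgeR), named after its value was seen.

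The chemokines Cxcl9 and Cxcl10, which attract T cells, rose 14.7- and 8.73-fold. Of the 8 inflammasome partners 6 rose, among them Il1b (19.1-fold), Casp4 (7.88-fold), the caspase that binds bacterial lipopolysaccharide, and Gsdmd (3.02-fold), the pore-forming protein it cleaves. By edgeR, 0 of the 78 tested genes of these pathway lists passed at 6, 9 or 12 months or with ABT263 at 6 or 9 months, where the share of all genes that passed was 0%, 0%, 0.0289%, 0% and 0%. The unadjusted p was under 0.05 for 3 of 78 at 6 months, beside 9.1% of all genes, for 15 at 9 months, beside 13.6%, and for 48 at 12 months, beside 14%. With ABT263 it was so for 9 of 78 at 6 months, beside 11% of all genes, and for 8 at 9 months, beside 5.73%. DESeq2 called 1, 4 and 18 of the 78 at 6, 9 and 12 months, beside 0.687%, 3.1% and 4.73% of all genes, and 4 and 1 with ABT263, beside 2.13% and 0.176%. The lists share this contrast with the relatives and their members were not tested as sets.

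At 18 months 16 of the 78 pathway genes and 20 of 45 cell type markers passed against 3 months, where 8.18% of all genes tested passed in either direction and 4.7% with a rise. The edgeR counts in this paragraph come from the fit without the replicate block. With the block 11.4% of all genes passed. Of the genes of antigen processing and presentation 7 of 17 rose, among them H2-D1, a class I heavy chain (log2 change 1.69 ± 0.23, adjusted p = 0.00728 by edgeR), and B2m, its light chain (1.24 ± 0.30, adjusted p = 0.0445 by edgeR). Of the inflammasome partners 4 of 8 rose, and these were Aim2, a sensor of cytosolic DNA (2.14 ± 0.37), Casp4 (1.76 ± 0.36), Casp1 (1.64 ± 0.32) and the adaptor Pycard (1.10 ± 0.22). By edgeR 0 of 9 immunity-related GTPases passed, with a median log2 change of 1.15, and for 8 of the 9 the unadjusted p was under 0.05, beside 24.2% of all genes, and DESeq2 called 6, beside 13.8%. Of 7 T cell markers 4 rose, with Cd4 changed by a log2 of 3.84 ± 0.54, and 4 of 7 macrophage markers rose, with Cd68 changed by 2.83 ± 0.31. Of 6 B and plasma cell markers 3 rose, with Jchain changed by 5.90 ± 0.93. All 6 oocyte markers fell at 18 months, with a median log2 change of -3.31 and Zp3, a protein of the egg coat, changed by -3.47 ± 0.16, and Amh changed by -3.80 ± 0.44, where 3.48% of all genes passed with a fall.

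Markers of immune cells were higher in the same 25-month ovaries, where 15.2% of all genes passed with a rise. All 8 T cell markers rose, with a median log2 change of 4.67 and Cd3e 29.6-fold higher. Their sum was 15.2, 8.04 and 11.9 CPM at 3 months and 249, 310 and 86.3 CPM at 25 months, so ovaries 1 and 2 were high and ovary 3 lower, the order seen for Gbp2. Cd4 was the most abundant T cell marker in 25-month ovary 1, with 56.2 CPM.

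All 6 B and plasma cell markers rose, with a median log2 change of 5.09, and their sum went from 31.3, 8.73 and 11 CPM to 10496, 9099 and 2724 CPM, most of it Igkc (8865 CPM in 25-month ovary 1). All 7 macrophage markers rose, with sums of 247, 278 and 259 CPM against 1589, 1181 and 628 CPM. Of 6 natural killer cell markers 4 rose, and their sum went from 3.87, 2.93 and 3.32 CPM to 39.4, 49.9 and 11.4 CPM. In all these lists 25-month ovary 3 was the lowest of its group, and no T cell, B cell, macrophage or natural killer cell marker was at 0 in 25-month ovary 1.

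Markers of oocytes and granulosa cells went the other way, where 11.4% of all genes passed with a fall. Of 6 oocyte markers 5 fell, with sums of 357, 377 and 279 CPM at 3 months and 6.88, 27.3 and 19.5 CPM at 25 months, and of 5 granulosa markers 3 fell. The granulosa sum was 2009, 2627 and 2421 CPM at 3 months and 261, 545 and 2020 CPM at 25 months, and the theca sum 2163, 581 and 2230 CPM against 289, 609 and 2374 CPM. In both sums 25-month ovary 3, the lowest of its group in the Gbp genes, was the highest, and ovary 1 the lowest. Most of the granulosa sum of ovary 3 was Inha (1849 CPM), whereas Amh was lowest in that ovary. Of the 3 theca markers none passed, and of 5 endothelial markers 1 rose (Tek, 1.57-fold), beside 15.2% of all genes. At 6, 9 and 12 months the median log2 change of the 6 oocyte markers against 3 months was -0.64, -1.38 and -2.07, with 0 called by edgeR. All 6 had an unadjusted p under 0.05 at each age, beside 9.1%, 13.6% and 14% of all genes. DESeq2 called 3, 6 and 6, beside 0.687%, 3.1% and 4.73% of all genes. With ABT263 at 6 months the estimates of the oocyte markers were in the opposite direction, all 6 above 0 with a median of 0.52. Of these, 0 were called by edgeR, 6 had an unadjusted p under 0.05, beside 11% of all genes, and 5 were called by DESeq2, beside 2.13%. The part of the changing cell makeup in the rise of the Gbp genes was not tested.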

How the data were processed

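RNA of whole ovaries was sequenced by a service provider from mRNA libraries that, per the labels, were made with a NEBNext Ultra kit. The authors deposited raw counts per Ensembl gene as whole numbers, not normalized. The submitters' processing notes name STAR and the build mm10, and the counter and its strand setting were not given in the sources used here. Of the 54532 identifiers, 54495 were in GENCODE M21.

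Counts were tested as deposited with edgeR 4.0.16 (R 4.3.3; TMM factors, filterByExpr, quasi-likelihood F tests, Benjamini-Hochberg adjustment over all genes tested, threshold 0.05), each pair of groups in a fit of its own, any age difference over 18 natural aging ovaries with 5 coefficients, the drug interaction over 12 ovaries, and the slope on Gbp2b (log2 CPM, prior count 2) over 24 ovaries with the 8 groups as a factor. The script was tested on simulated data. CPM values were scaled over all 24 libraries. Depth was 16361877 to 21049389 counts per library, and intervals cover the spread between ovaries.

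Groups and ovary numbers came from the labels. The labels do not pair ovaries of different groups, and the main fits used no pairing. A block for the ovary number was an alternative in every comparison. At 18 versus 3 months the deviations of same-numbered ovaries from their group means correlated at 0.154 to 0.247. In each of the other comparisons at least 1 pair was at or below 0.1. Single pairs there reached 0.276 at 12 versus 3 months and 0.308 for ABT263 at 9 months. The members, lists and tests were chosen with earlier results of these data known. All 10 members were named, up to 3 genes per list and comparison with the smallest adjusted p under 0.05, and the 10 genes with the smallest p for the slope among those with a mean of at least 1 CPM. B2m and Casp4 at 18 months were named outside the rule of 3 genes per list. Alternatives were DESeq2 1.42.0, DESeq2 size factors, no filter, at least 10 counts in every ovary, a replicate block, 1 fit of all 24 libraries, no group term, the 18 natural aging ovaries alone and leaving out each library. Leaving out the 25-month ovaries was added after the data were seen.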

Additional observations from a re-analysis of the deposited data

How the results depend on the processing

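The direction and the calls of the 8 relatives at 25 versus 3 months held under every alternative fit, and 8 to 9 relatives passed without any single library, though Gbp9 had an adjusted p of 0.0514 by edgeR without 3-month ovary 3. The smaller comparisons depended on the processing. Without the filter on low counts, edgeR called 456 genes at 6 versus 3 months, 1 relative and 681 genes at 9, 1 and 312 at 12, 7 and 2529 at 18, 871 genes for ABT263 at 6 months, 7 at 9 months and 204 for the interaction. DESeq2 called 121 genes at 6 versus 3 months, 2 relatives and 552 genes at 9, 3 and 842 at 12, 7 and 2600 at 18, 371 and 32 genes for ABT263 at 6 and 9 months, 95 for the interaction and 24 for the slope. With the replicate block 1 gene passed at 6 versus 3 months, 0 at 12 and 8 for ABT263 at 6 months. At 18 months 5 relatives and 1992 genes passed with the block. In all of these comparisons the blocked ovaries share only a number. A fit of all 24 libraries gave 15 genes at 9 versus 3 months, 220 at 12, and 5 relatives and 2403 genes at 18. With at least 10 counts in every ovary 0 genes passed at 12 versus 3 months and 0 for the slope, where genes near 0 in most ovaries leave the test by construction. The slope called 1 gene in the 18 natural aging ovaries. Without the 25-month ovaries, an alternative added after the data were seen, any age difference called 3 relatives and 979 genes. Apart from the last filter, the cause was not tested.

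Without 1 library each, calls among relatives were 0 to 1 at 12 versus 3 months, 0 to 8 at 18, 7 to 9 for any age and 0 for the drug, the interaction and the slope. All genes called were 0 to 76 at 6, 0 to 10 at 9, 0 to 353 at 12, 395 to 3055 at 18 and 2900 to 5923 at 25 months, 0 to 210 and 0 to 5 for ABT263 at 6 and 9 months, 0 to 31 for the interaction and 0 to 7 for the slope. Estimates that changed sign were not past the threshold: without single libraries Gbp6 at 6 versus 3 months was -0.07 to 0.40 and Gbp2 for ABT263 at 9 months -0.03 to 0.57, and slopes were -0.025 to 0.028 for Gbp4, -0.02 to 0.019 for Gbp5, -0.0046 to 0.056 for Gbp9 and -0.069 to 0.12 for Gbp10. The Gbp5 slope was also -1.3e-05 without the filter, -2.1e-05 by DESeq2 and -0.0036 without the 25-month ovaries, and the Gbp10 slope 0.11 without the group term, 0.014 in the natural aging ovaries and 0.0033 by DESeq2. Gbp10 had 3 counts or fewer in 12 ovaries, and its transcripts share 84.1% of their short stretches with other genes. Whether depth, shared reads or a low level of the gene kept its counts low was not tested.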

Other observations

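Gbp11, a chromosome 5 member of the family outside the 10 genes described, had 5.74, 4.33 and 1.05 CPM in the 25-month ovaries and 0.242, 0.585 and 0.357 CPM in the 3-month ovaries. In the Gbp2b-high ovaries of the drug groups it had 0.896 and 0.76 CPM at 6 months and 0.124 CPM at 9 months. The pseudogene Gbp2-ps, which lies after Gbp2, was at 0 in all 24 ovaries.

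Ciita, the activator of class II genes, had 69.6, 50.7 and 22.2 CPM at 25 months and 6.49, 7.4 and 9.5 CPM at 3 months, with ovary 3 the lowest of the oldest group, as for the Gbp genes.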
